A study of Mus musculus with 2 samples.

Results

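The cells described here were 336 enterocytes of the fetal mouse small intestine that carried high levels of both Fabp6 and Afp, out of 11053 kept cells. They were selected on measured values: Fabp6 of at least 50 and Afp of at least 20 per 10000 transcripts, no transcript of the cell cycle genes Mki67 and Top2a, and a sum below 10 over the goblet genes Muc2, Fcgbp, Spink4, Clca1 and Zg16. The table held 11871 cells with barcodes that end in suffix 0 or suffix 1. For 818 barcodes present under both suffixes, the suffix 1 row was dropped before any comparison. Levels are means over cells of values scaled to 10000 per cell, abbreviated CP10K, and depth is given in unique molecular identifiers (UMIs), which count captured transcripts.

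The study measured RNA in single cells of sorted small intestinal epithelium from mouse embryos at E18.5, a late stage shortly before birth. It had 1 Control library and 1 Tet3 knockout library (labelled Tet3KO), each made from cells pooled from 2 embryos. The knockout is a germline allele made in embryonic stem cells, in which loss of exon 5 leads to a stop codon in exon 6 of Tet3, a dioxygenase acting on methylated cytosine. The line had been backcrossed for at least 5 generations to C57BL6/JRccHsd, and the strain label of both libraries is C57BL6/J. Cells were fixed in 90% methanol and profiled by droplet sequencing of transcript 3′ ends, with 6000 cells used per sample and 10000 reads per cell stated. The depth recovered from the values, a median of 22382 UMIs over all 11871 cells, exceeds that stated figure. The reason was not tested, and UMI counts below rest on the recovered depth. No label ties a barcode suffix to a genotype, so Control and knockout were not compared, and suffix, library, genotype and the stretch of intestine sampled cannot be told apart. With 1 pooled table there are no replicates. No p-value or standard error is given, and every comparison of the selected cells with others is a description of cells that their own Fabp6 and Afp chose.

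Fabp6 encodes the bile acid binding protein of ileal enterocytes, which carry bile acids from the lumen to the portal blood. Afp encodes alpha-fetoprotein, a fetal serum protein made mainly by yolk sac and fetal liver and, at lower levels, by fetal gut. Before weaning, enterocytes of the distal small intestine take up luminal protein through the receptors cubilin and amnionless with the adaptor Dab2, and digest it in large lysosomes with enzymes such as legumain, the product of Lgmn.

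The promoters of Afp and Fabp6, which chose the cells, and of Fabp1, a fatty acid carrier gene that was lower in them, are printed from RefSeq (GRCm38.p6) as the 250 bases before the annotated start, 5′ to 3′ on the gene's strand. Capitals mark matches, on either strand, to TTTATG, a core bound by CDX factors. The windows are chr5:90490464-90490713 on the plus strand for Afp, chr11:43601563-43601812 on the minus strand for Fabp6 and chr6:71199629-71199878 on the plus strand for Fabp1.
Afp: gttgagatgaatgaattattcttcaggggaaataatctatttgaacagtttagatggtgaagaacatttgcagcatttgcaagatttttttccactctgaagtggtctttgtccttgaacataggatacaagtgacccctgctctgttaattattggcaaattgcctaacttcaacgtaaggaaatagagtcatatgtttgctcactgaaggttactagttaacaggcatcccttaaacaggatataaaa
Fabp6: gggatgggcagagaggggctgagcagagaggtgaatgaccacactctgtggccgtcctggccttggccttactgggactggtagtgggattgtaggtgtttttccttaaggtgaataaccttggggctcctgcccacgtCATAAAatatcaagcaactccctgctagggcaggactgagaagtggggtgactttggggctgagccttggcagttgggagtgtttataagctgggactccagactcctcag
Fabp1: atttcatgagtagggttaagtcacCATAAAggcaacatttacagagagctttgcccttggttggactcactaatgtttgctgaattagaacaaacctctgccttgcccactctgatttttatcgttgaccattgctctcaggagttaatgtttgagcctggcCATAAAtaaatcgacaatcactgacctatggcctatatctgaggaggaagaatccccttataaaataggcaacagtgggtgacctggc
Fabp6 held a match on the opposite strand, printed as CATAAA, and Fabp1 held matches of the same kind. Positions here and below are those of the first printed base, on the gene's strand, in bases before the start. They were 111 for Fabp6 and 226 and 88 for Fabp1. TTTATG was present on either strand in 10.8% of 32851 promoter windows of the same length. Of 14 genes looked for, 12 had an entry. The other motifs searched were AGATAA for GATA factors (9.99% of windows), CACGTG for E-box factors (6.02%) and CAAAGTCCA for HNF4 (0.384%), none of which lay in the 3 printed windows. In the wider set, Reg4 matched AGATAA at 101, Guca2a matched AGATAA at 144 and 120, and 1 of the Lgmn entries held CACGTG at 49. For Tmigd1, 1 of the entries matched AGATAA at 79 and TTTATG at 53, and Ctsl held CACGTG at 236. No listed motif lay in the windows of Afp, Fgb, Gpx3, Gatm or Gstm3. No listed matches overlapped, and a match describes letters only. In the GRCm38 annotation Afp spans chr5:90490737-90508907 on the plus strand, Fabp6 chr11:43596049-43601540 and Lgmn chr12:102394084-102439813, both on the minus strand.

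Nearly all of the selected cells had suffix 0. Of 5933 kept suffix 0 cells, 335 qualified (5.65%, exact Clopper-Pearson 95% interval 5.07 to 6.26), against 1 of 5120 suffix 1 cells (0.0195%, interval 0.000494 to 0.109), and over both the share was 3.04% (2.73 to 3.38). Intervals here and below cover counting error only. The suffixes differed more in Fabp6 than in Afp: of all kept suffix 0 cells, 17.0% lay within the cycling and goblet limits and reached the Fabp6 minimum, against 0.449% of all kept suffix 1 cells, while 8.87% and 5.63% did so for the Afp minimum. The lone suffix 1 cell had 15342 UMIs, Fabp6 at 75, Afp at 37.2 and Lgmn at 1.30 CP10K. Since suffix differs so strongly, values within suffix 0 are given beside pooled ones. Among the 336 cells, 37 (11%, 7.87 to 14.9) had a barcode that also occurred under suffix 1, and 32 of those 37 dropped rows passed the same limits. Those rows had a median of 13192 UMIs, Fabp6 at 93.9 and Afp at 32.0 CP10K. With the suffix 1 rows of all shared barcodes kept, 372 cells qualified (3.13%), of which 335 had suffix 0. The exact size of the suffix 1 share thus depends on dropping those rows, but most selected cells had suffix 0 either way.

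**Figure D1:**
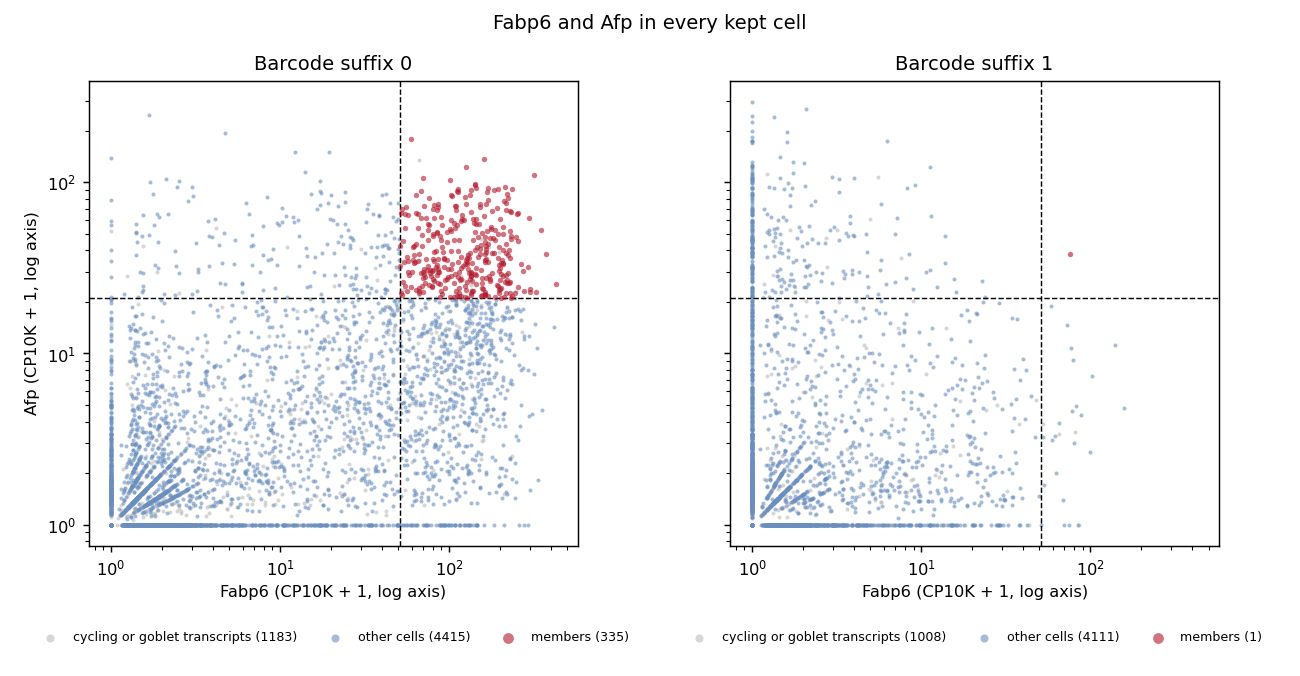
Fabp6 (x axis) against Afp (y axis) in every kept cell, as CP10K plus 1 on log axes, with suffix 0 on the left and suffix 1 on the right. Each point is a cell, dashed lines mark the minimums of 50 and 20 CP10K, and red points are the 335 and 1 selected cells.

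High Afp was more frequent the higher Fabp6 was, within suffix 0 and the cycling and goblet limits. Fabp6 and Afp are the genes that chose the cells, and 20 CP10K is the rule's own Afp minimum. The shares below therefore describe the rule's values and give no separate support for the group. The share of cells with Afp of at least 20 CP10K was 1.62% (95% interval 1.17 to 2.19) among 2590 cells with Fabp6 below 2, and 8.19% from 2 to 10. It was 17.0% from 10 to 50, 28.7% from 50 to 100, 31.2% from 100 to 150 and 39.4% from 150 to 200. Among the 137 cells with Fabp6 of 200 or more it was 43.8% (35.3 to 52.5). Above the minimum of 50 as a whole, 335 of 1007 cells (33.3%, 30.4 to 36.3) were Afp-high, against 191 of 3743 (5.10%, 4.42 to 5.86) below it. Suffix 1 had only 23 Fabp6-high cells, of which 1 was Afp-high (4.35%, 0.110 to 21.9), against 287 of 4089 (7.02%, 6.25 to 7.85) of the cells with lower Fabp6. Of the 288 Afp-high cells of suffix 1, those 287 had Fabp6 of 22.8 CP10K at most.

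**Figure D2:**
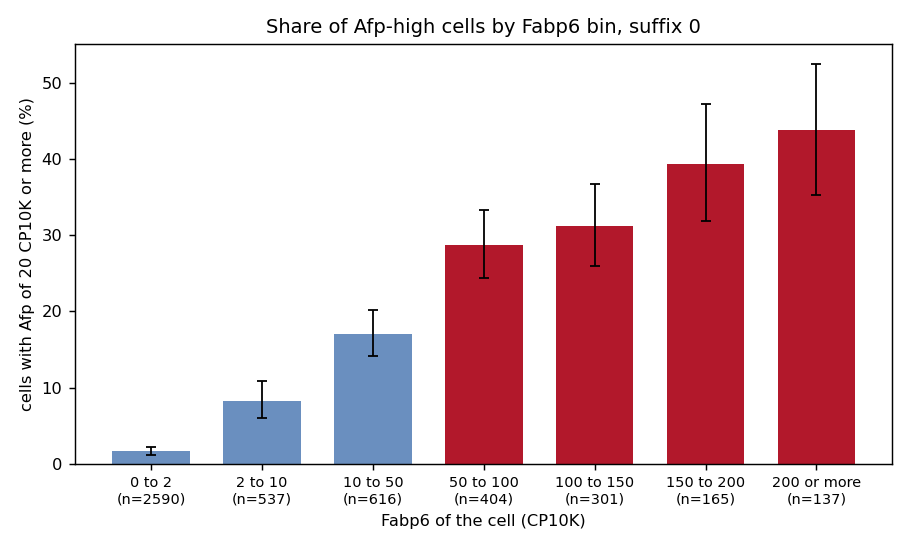
Share of suffix 0 cells with Afp of 20 CP10K or more (y axis, percent) in 7 bins of Fabp6 (x axis, CP10K). Bars are shares, error bars exact 95% intervals, and n is the number of cells in the bin; red bars lie above the Fabp6 minimum, and the share goes from 1.62% in the lowest bin to 43.8% in the highest.

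Within the selected cells, Fabp6 ran from 50.1 through a median of 125 to 426 CP10K and Afp from the minimum of 20 through 34.5 to 177. These are the values that chose the cells. Just inside the Fabp6 minimum, 22 cells between 50 and 60 had mean Lgmn of 10.4 and Ttr of 36.6 CP10K, and 25 cells just outside, between 40 and 50, had 9.32 and 24.5. Just inside the Afp minimum, 60 cells between 20 and 24 had Lgmn of 7.79, Ttr of 25.7 and Fabp1 of 94.1. The 66 cells just outside, between 16 and 20, had 8.29, 26.0 and 107, close to the values inside. Recovered depth ran from 9847 through a median of 23624 to 134983 UMIs, with 4612 genes and 6.87% mitochondrial signal in the median cell. The median depth of all other suffix 0 cells was 23658 and that of suffix 1 cells 22375. Ribosomal protein genes made up 9.30% of the signal in the median selected cell, against 11.4% in other suffix 0 cells.

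The markers fit enterocytes. Summed over 10 enterocyte genes the mean was 513 CP10K, against 641 in other suffix 0 cells, and 6 of the 10 were higher in the selected cells, with Apoa1 and Apoa4, secreted on chylomicrons, at 191 and 101 CP10K. Proliferation genes summed to 1.10 against 4.93 and goblet genes to 0.651 against 3.96. Both sums contain genes of the rule. Paneth cell genes summed to 0.0221 with 3 of 6 in the table at 0, enteroendocrine genes to 0.0594 with 2 of 8 at 0, and neural genes were all at 0. Immune genes summed to 3.48, nearly all of it from Csf1r, the receptor of a macrophage growth factor, while 4 of the 6 in the table were at 0. Hepatocyte genes summed to 34.1 (8.88 in other suffix 0 cells), of which Ttr made up 32.1. Albumin, the defining serum protein of hepatocytes, was at 0.00326 CP10K and was seen in 1 of 336 cells after thinning every cell to 8000 UMIs. The "ileal" label rests on Fabp6, which chose the cells, and on the bile acid genes described next. Of 7 measured bile acid genes, only 2 were at least 2-fold higher than in other suffix 0 cells. Slc10a2, the ileal bile acid importer, goes against the label, at 0.0059 CP10K against 0.0212 in other suffix 0 cells. At full depth Slc10a2 was seen in 1.49% of the selected cells, and in 5.68% of suffix 0 cells with Mki67 or Top2a. After thinning it was seen in 0 of 336 cells, which allows a share of up to 0.893% of cells with a UMI at 8000 UMIs and sets no limit on cells that express the gene. Thinning left out 0 selected cells, 34 other suffix 0 cells and 4 Fabp6-high cells with lower Afp as too shallow.

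Against all other kept cells, 233 of 5493 measured genes (4.24%) were at least 2-fold higher in the selected cells and 324 (5.9%) at least 2-fold lower. A gene counted as measured at a mean of 0.2 CP10K or more in 1 or both groups, the 9 genes of the rule were left out, and log2 ratios are of means with 0.01 CP10K added to both. Within suffix 0 the counts were 115 of 5411 (2.13%) and 233 (4.31%). With the cycling and goblet limits applied to the other suffix 0 cells too, an alternative chosen after seeing the data, they were 74 of 5292 (1.4%) and 109 (2.06%). Over all measured genes within suffix 0, the median log2 ratio was 0.05 and 55.3% of genes had a ratio above 0. The gene groups below can be read beside these values. The leading genes on the higher side were Lgmn, the plasma-type peroxidase Gpx3, the hormone Fgf15, guanylin (Guca2a), Tmigd1, the unnamed gene model AC163635.1, fibrinogen beta (Fgb), the lectin Reg4, transthyretin (Ttr) and the creatine synthesis enzyme Gatm. On the lower side were Krt19, Reg1, Dmbt1, Ckb, Cda, Mme, S100a6, Ifitm2 and the histone genes Hist1h2ap and Hist1h2ao, whose near-identical copies make their counts uncertain.

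Lgmn, the third gene given as a marker of these cells, was not part of the rule. It ran from 1.18 through a median of 8.48 to 23.3 CP10K over the selected cells, so each of them carried it, and its mean was 9.24 against 2.70 in other suffix 0 cells (log2 1.77) and 0.736 in other suffix 1 cells. Summed UMIs gave 8.99 per 10000 (exact Poisson 95% interval 8.79 to 9.19) against 2.67 (2.64 to 2.69). Gpx3 ran from 9.57 through 34.9 to 117 CP10K, with a mean of 38.2 against 12.1. These genes were not highest in the selected cells: suffix 0 cells with high Afp but lower Fabp6 had Lgmn at 11.1 and Gpx3 at 54.6. After thinning, Lgmn was seen in 336 of 336 selected cells, in 54.0% of other suffix 0 cells and in 27.4% of suffix 0 cells with Mki67 or Top2a, whose median depth was 25055 UMIs. Before thinning these shares were 100%, 71.0% and 49.9%.

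In the bile acid group, the hormone Fgf15 and the pump Abcc2 were higher. They were the 2 of 7 measured genes at least 2-fold higher than in other suffix 0 cells, 0 were at least 2-fold lower, and the median log2 ratio was 0.76. Fgf15, the ileal hormone that restrains bile acid synthesis in the liver, ran from 0 through 2.32 to 11.7 CP10K with a mean of 2.68, against 1.01 in other suffix 0 cells (log2 1.41) and 0.0804 in suffix 1 cells. It was seen in 81.5% of thinned selected cells, 32.0% of other suffix 0 cells and 30.0% of cycling cells, and in 95.5%, 44.8% and 43.9% before thinning. The apical pump Abcc2 was at 7.58 against 2.61 (log2 1.53). The basolateral exporter subunits Slc51a and Slc51b were at 9.57 against 5.65 (0.76) and 4.32 against 2.50 (0.79). Nr0b2, a repressor induced by bile acids, was at 0.550 against 0.363 (0.59), and Nr1h4, the bile acid receptor, at 1.74 against 1.5 (0.22).

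Some receptors of protein uptake and some lysosomal enzymes were at least 2-fold higher, and most genes of these groups lay above 0 without passing 2-fold. Of 12 measured endocytic genes, 3 were at least 2-fold higher than in other suffix 0 cells and 0 lower (median log2 0.53). These were the scavenger receptors Lrp2 (0.893 against 0.303 CP10K) and Cubn (3.23 against 1.51) and the adaptor Dab2 (3.77 against 1.80), with amnionless (Amn) at 9.91 against 5.94. Fcgrt, the neonatal receptor for immunoglobulin G, was at 11.4 against 17.6 (log2 -0.64). Of 11 cathepsins and legumain, 4 were higher and 0 lower (median 0.90), with Ctsh at 2.86 against 1.21, Ctsz at 28.1 against 14.0 and Ctsd at 8.20 against 3.87, all lysosomal proteases. Ctsb at 17.7 against 9.5 stayed just under 2-fold. Of 22 lysosomal glycosidases, lipases and sulfatases, 5 were higher and 0 lower (median 0.77), among them the sialidase Neu1 at 13.4 against 6.33, the hexosaminidase subunit Hexa at 10.6 against 4.99 and the acid glucosidase Gaa at 1.49 against 0.667. All 22 had a ratio above 0, as did 55.3% of all measured genes. Lysosomal membrane proteins (15 measured, median 0.60) and subunits of the proton pump that acidifies lysosomes (16 measured, median 0.40) held no gene past 2-fold, although each of these 31 genes lay above 0. The 5 measured regulators of lysosomal genes had a median of 0.23. With the cycling and goblet limits applied to the other cells, the counts past 2-fold were smaller, at 1 of 12 endocytic genes (median 0.47), 2 of 11 cathepsins and legumain (0.74) and 2 of 22 glycosidases, lipases and sulfatases (0.61).

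**Figure D3:**
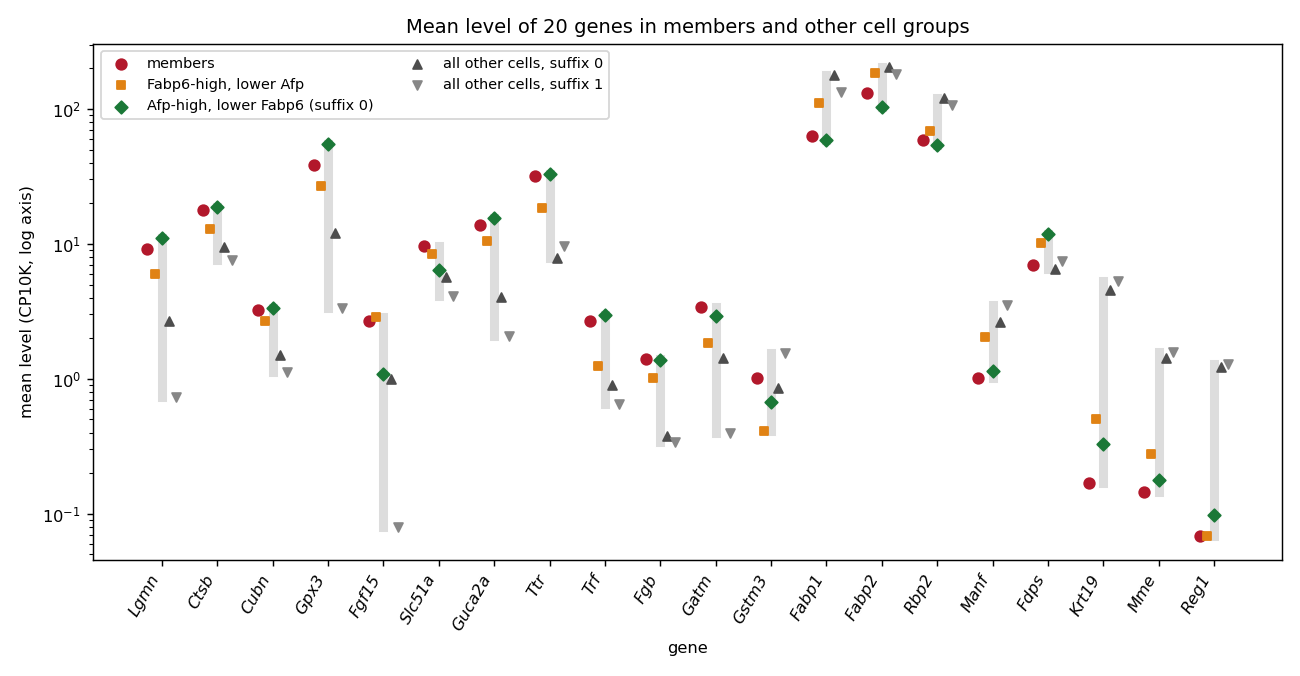
Mean level of 20 genes (x axis) in CP10K on a log axis (y axis) in the selected cells, Fabp6-high cells with lower Afp, suffix 0 Afp-high cells with lower Fabp6, and all other cells of each suffix. Points are means over cells and grey bars join the lowest and highest group; Lgmn reads 9.24 in the selected cells and 2.70 in other suffix 0 cells, and Krt19 0.169 against 4.56.

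Afp came with some liver-type serum proteins and not with others. Of 28 listed, 24 were in the table and 7 were measured; 5 of these were at least 2-fold higher than in other suffix 0 cells and 1 was lower (median log2 1.64). Ttr, a carrier of thyroid hormone, ran from 0.363 through 25.2 to 144 CP10K, with a mean of 32.1 against 7.92 in other suffix 0 cells (log2 2.01) and 9.62 in suffix 1 cells. Trf, the iron carrier transferrin, ran from 0 through 2.29 to 16.1 with a mean of 2.66 against 0.898 (1.56). The retinol carrier Rbp4 was at 0.840 against 0.156 (2.36), Fgb at 1.41 against 0.376 (1.88) and Fga, fibrinogen alpha, at 0.487 against 0.150 (1.64). Serpina1a, an antitrypsin, was at 0.102 against 0.434 (log2 -2.01). Apoh, another abundant liver protein, was at 0.00318 CP10K. Among 8 measured genes of a list on Afp control in liver, 1 passed 2-fold, or 0 with the cycling and goblet limits applied to the other cells. This was Afm, an albumin-family gene next to Afp rather than a regulator, at 0.542 against 0.245. The repressor Zbtb20 was at 0.245 against 0.129 (0.88).

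Some proximal intestinal genes were lower in the selected cells, and distal genes went in both directions. Of 12 measured proximal genes, 4 were at least 2-fold lower than in other suffix 0 cells and 0 higher (median log2 -0.47), and 3 had a ratio above 0. These were Reg1, at 0.0685 against 1.23 CP10K, the duodenal transcription factor Onecut2, at 0.0424 against 0.527, the retinol binding protein Rbp2, at 58.7 against 120, and Fabp1, the liver-type fatty acid binding protein. Fabp1 varied widely within the selected cells, from 1.11 through 38.5 to 259 CP10K, with a mean of 62.9 against 177 (log2 -1.5). Of 8 distal genes, 2 were higher and 2 lower (median 0.68). The higher were Fgf15 and Guca2a, the latter at 13.8 against 4.03. The lower were the water channel Aqp8, at 0.0833 against 0.613, and the chemokine Ccl25, at 0.886 against 2.92, which stood on the list although Ccl25 is a gene of the small intestine.

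Krt19, a keratin, was low. It ran from 0 to 5.23 CP10K with more than 3 in 4 selected cells at 0 and a mean of 0.169 against 4.56 in other suffix 0 cells (log2 -4.67). It was seen in 10.7% of thinned selected cells, 51.8% of other suffix 0 cells and 86.7% of cycling cells, and in 23.8%, 63.3% and 91.9% before thinning. Neighbouring groups were low in Krt19 too. After thinning it was seen in 20.9% of Fabp6-high cells with lower Afp and 13.1% of suffix 0 Afp-high cells with lower Fabp6. Of 8 ribosome biogenesis genes, 6 were at least 2-fold lower (median -1.20), but with the cycling and goblet limits applied to the other cells as well 0 of 5 measured were past 2-fold (median -0.48). Of 12 immediate early genes, 3 were at least 2-fold lower (median -0.86), among them Btg2 at 0.0511 against 0.410, and under the same limits 1 of 11 was (median -0.48). Mme, a peptidase of the brush border, was at 0.146 against 1.43. After thinning it was seen in 6.85% of selected cells and 39.5% of other suffix 0 cells. In the same neighbouring groups, in that order, Mme was seen in 15.2% and 9.95%. It was the 1 gene at least 2-fold lower of 14 measured disaccharidases and peptidases, of which 4 had a ratio below 0. On the other side 4 were at least 2-fold higher, or 2 under the same limits, with Mep1a at 3.78 against 1.56 and Naaladl1 at 1.94 against 0.669.

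A further comparison was with the 694 other Fabp6-high cells, which met every limit but that on Afp. Of 5163 measured genes, 14 were at least 2-fold higher (0.271%) and 10 at least 2-fold lower (0.194%), and within suffix 0 these counts were 14 and 9. The higher genes included the glutathione enzymes Gstm3, Gsta3 and Gpx2, the serum proteins Trf and Rbp4, the imprinted RNA Meg3, Bex2, and the amino acid degradation enzymes Hal and Hgd. Gstm3 was at 1.02 against 0.410 CP10K (log2 1.29), and summed UMIs gave 1.00 per 10000 (0.939 to 1.07) against 0.413 (0.384 to 0.443). Trf was at 2.66 against 1.25 (1.09) and was seen in 252 of 336 thinned selected cells against 345 of 690, with 206 of 1085 among cycling cells; before thinning the shares were 90.5%, 76.7% and 40.7%. Meg3 was at 2.29 against 1.09 (1.06), in 39.9% against 27.0% of thinned cells (45.8% against 34.1% before thinning). Of the 14, 3 rested on a few cells: the interferon genes Rsad2 and Ifit3 and the osteocalcin-related Bglap3 drew 95.5%, 90.5% and 93.6% of their summed level from the 5 highest selected cells. Rsad2 was above 0 in 18 of 336 selected cells and Ifit3 in 28. The lower genes were Manf, Mvk, Ckb, Krt19, S100a6, Ifitm2, Nr2e3, 5033403H07Rik and the gene models Gm9843 and Rps16-ps2, of which the last pair may share reads with parent genes and drew 99.9% and 88.5% of their summed level from the 5 highest selected cells.

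By groups, glutathione and antioxidant enzymes had 3 of 20 genes at least 2-fold higher and 0 lower than in the other Fabp6-high cells (median log2 0.46, against 0.02 over all genes), with 17 above 0. Of all measured genes in this comparison, 54.9% lay above 0. Gsta1 was at 1.70 against 0.947, Gsta4 at 1.01 against 0.570 and Gstm1 at 1.2 against 0.735. The genes of the alpha and mu classes of glutathione transferases have close copies, so their counts are uncertain. All 6 measured serum proteins lay above 0 (median 0.63), with Ttr at a log2 ratio of 0.79 and summed UMIs of 31.1 per 10000 (30.8 to 31.5) against 18.8 (18.6 to 18.9). Lgmn was at 9.24 against 6.02 (0.62) and 10 of 11 cathepsins and legumain lay above 0 (median 0.30), as did 20 of 22 lysosomal glycosidases, lipases and sulfatases (0.27), with none past 2-fold. Bile acid genes had a median of 0.09 over 7. Fgf15 was at 2.68 against 2.86, and its summed UMIs of 2.55 per 10000 (2.45 to 2.66) and 2.71 (2.63 to 2.78) had intervals that overlap.

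Most genes of cholesterol synthesis and of protein folding in the endoplasmic reticulum lay below 0 against the other Fabp6-high cells, but 1 of each list passed 2-fold. Of all measured genes, 54.9% lay above 0. Of 22 cholesterol genes, 21 lay below 0 (median log2 -0.33) and 1 was at least 2-fold lower, the mevalonate kinase Mvk at 0.154 against 0.320 CP10K. Mvd and Pmvk, the next enzymes of the pathway, were at 0.652 against 1.13 and 0.792 against 1.37, and Fdps at 6.99 against 10.1. Of 15 genes of the unfolded protein response, 14 lay below 0 (median -0.43) and 1 was at least 2-fold lower, the secreted factor Manf at 1.01 against 2.05. The chaperone Hspa5 was at 5.89 against 8.89, Sdf2l1 at 0.372 against 0.710 and Creld2 at 0.327 against 0.543. Fabp1 was at 62.9 against 111 (log2 -0.82), Fabp2, the intestinal-type fatty acid binding protein, at 132 against 184 (-0.48), and the esterase Aadac at 0.951 against 1.6 (-0.75).

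**Figure D4:**
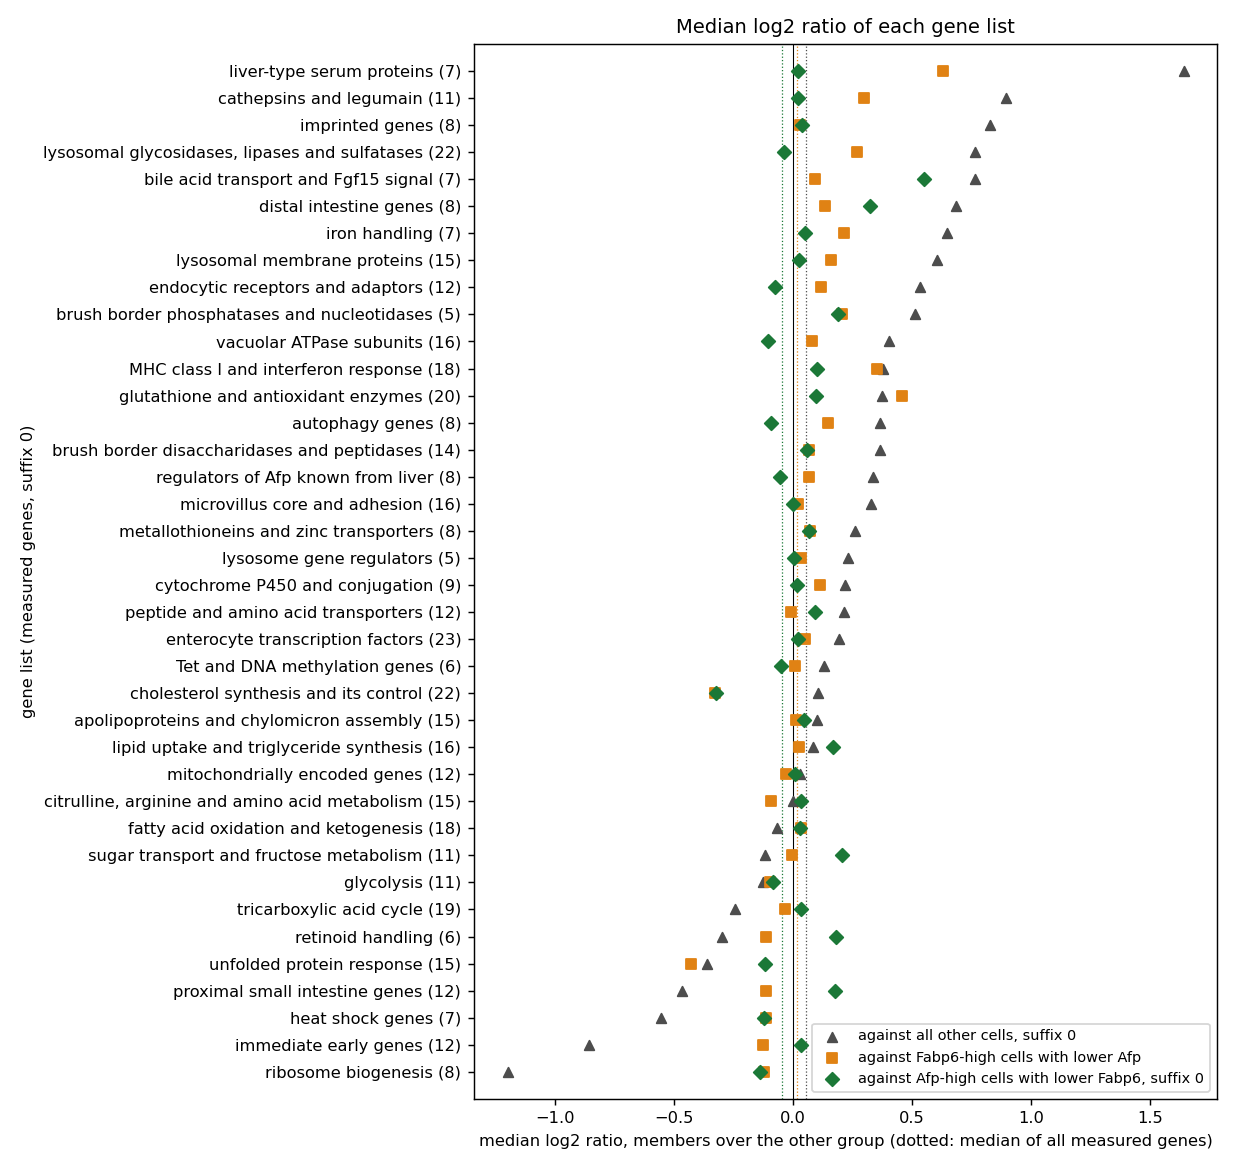
Median log2 ratio (x axis) of each gene list (y axis, with the number of genes measured in suffix 0) in the selected cells over 3 other groups: all other suffix 0 cells, Fabp6-high cells with lower Afp, and suffix 0 Afp-high cells with lower Fabp6. Dotted lines mark the medians over all measured genes; liver-type serum proteins read 1.64, 0.63 and 0.02, and cholesterol synthesis 0.11, -0.33 and -0.32.

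Levels were also taken by Afp bin, for genes chosen after their values were seen, so the directions below are a description and the last 2 bins are the selected cells themselves. Among the 1007 Fabp6-high cells of suffix 0, Afp bins of 0 to 2, 2 to 5, 5 to 10, 10 to 20, 20 to 40 and 40 or more CP10K held 193, 137, 145, 197, 201 and 134 cells. Lgmn was at 4.49, 5.86, 7.05, 7.34, 8.70 and 10.1 CP10K in this order, and Ttr at 15.2, 18.0, 20.5, 21.5, 29.9 and 35.2. Trf went from 0.882 in the lowest bin to 3.18 in the highest, Gpx3 from 23.3 to 42.2, the lysosomal protease Ctsl from 5.18 to 9.81 and Gatm from 1.44 to 3.74. Gstm3 went from 0.286 to 0.726 in the bin of 20 to 40 and then to 1.45, whereas Meg3 stayed between 1.02 and 1.13 in the first 4 bins and was at 2.12 and 2.57 in the last ones. Manf went down at each bin, from 2.90 through 1.55 in the third bin to 0.894, and Hspa5 from 11.1 to 5.33. Fabp1 was highest in a middle bin: 96.9, 115, 121, 104, 76.3 and 42.1. Fabp6 differed little, from 114 to 137, and so did Fgf15, from 3.11 to 2.54. Median depth lay between 21081 and 24045 UMIs over the bins.

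**Figure D5:**
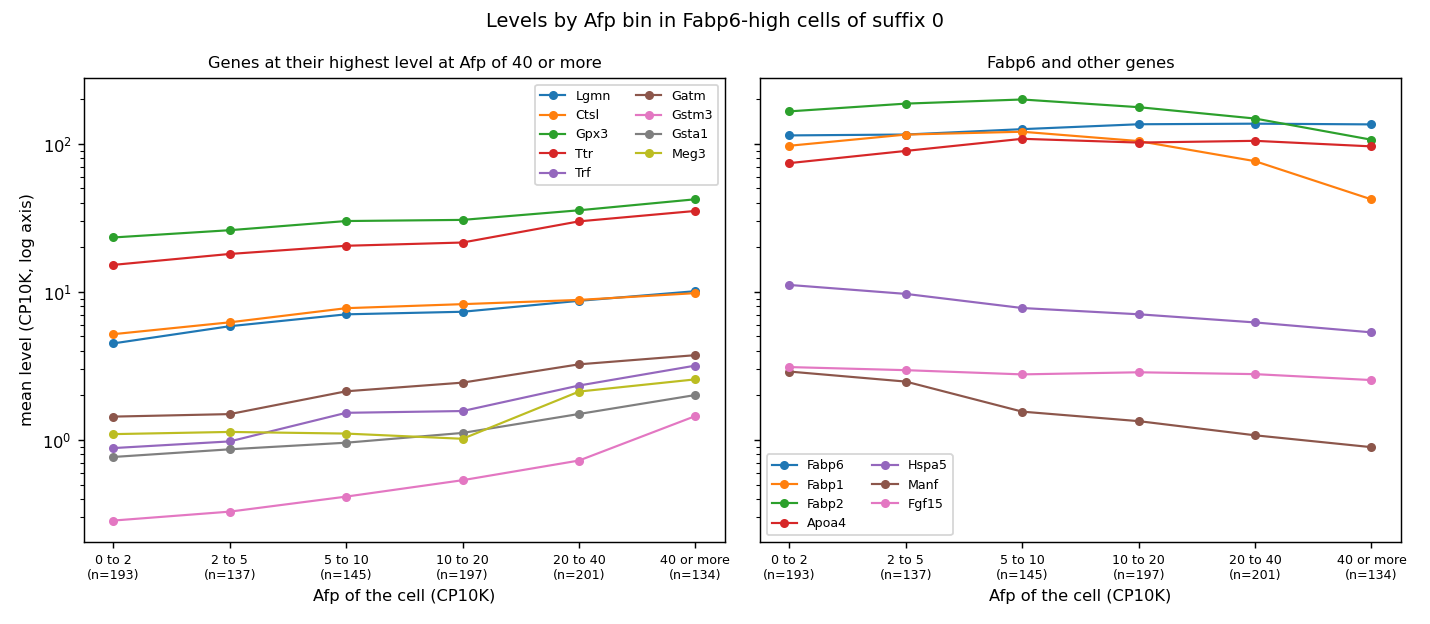
Mean level (y axis, CP10K, log axis) of 16 genes in 6 Afp bins (x axis, CP10K, with the number of cells) of Fabp6-high suffix 0 cells, of which the last 2 bins are the suffix 0 selected cells. Lines join means over cells; the left panel shows genes chosen for high levels at high Afp, such as Lgmn (4.49 to 10.1), and the right panel Fabp6 and other genes, such as Manf (2.90 to 0.894).

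Levels varied inside the selected cells as well. Split into groups of 112 by Afp, Fabp1 was at 84.0, 63.6 and 41.2 CP10K from the lowest to the highest group and Gstm3 at 0.690, 0.758 and 1.6. Split by Fabp6 instead, Lgmn was at 10.1, 9.01 and 8.59, Ctsl at 10.4, 9.17 and 8.10, and Manf at 1.28, 0.944 and 0.809. Afp itself was level across the Fabp6 groups, at 41.7, 43.5 and 42.8. Ranked by the Fano factor (variance over mean of thinned counts, median 1.13 over 1306 genes), the gene model Gm42418 was highest at 62.6. Fabp1 at 52.0 and Sprr2a2, a cornified envelope gene, at 42.4 came next. Sprr2a2 had a median of 1.39 and an upper quartile of 7.33 but reached 254 CP10K. In order, Gm28437 (39.1), Fabp2 (28.5), Gm10925 (27.5), the metallothionein Mt1 (27.4) and Malat1 (27.3) followed. After them came Gm28661 (26.6), Fabp6 (24.7), Apoa1 (19.4), Apoa4 (17.8) and Ttr (17.7). Mt1 ran from 2.81 through 37.9 to 243 CP10K.

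Compared with the 478 cells with high Afp but lower Fabp6, 56 of 5344 genes (1.05%) were at least 2-fold higher in the selected cells and 54 (1.01%) lower. Of the 478, 287 had suffix 1 and also lower Fabp6, at a median of 0 against 13.5 CP10K in the 191 suffix 0 cells. Suffix and Fabp6 level therefore cannot be told apart in the smaller counts found within suffix 0. Against the 191 alone, 8 of 5311 genes (0.151%) were higher and 8 (0.151%) lower. The higher were Fgf15, Tm4sf4, Clstn3, Gpx2, Pcx and the interferon genes Rsad2, Ifit3 and Isg15. Fgf15 was at 2.68 against 1.08 CP10K (log2 1.30) and in 81.5% against 45.5% of thinned cells. Isg15 drew 61.9% of its sum from 5 selected cells. Clstn3 was at 0.662 against 0.257 and Pcx, pyruvate carboxylase, at 0.410 against 0.186. The lower were Fabp5, the epidermal fatty acid binding protein, at 0.480 against 1.26, Hmox1, heme oxygenase, at 0.441 against 0.923, Gclc, a glutathione synthesis enzyme, at 0.211 against 0.70, the peptide Nts and 4 haemoglobin genes. All of the Nts and over 99% of the haemoglobin signal of those 191 cells came from 5 cells or fewer, and Hbb-bs, at 1.13 CP10K there, was at 0.0264 in the selected cells.

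Within suffix 0, Afp-high cells with and without high Fabp6 had close median levels of serum and lysosomal genes, and of the bile acid genes Fgf15 alone (1 of 7) passed 2-fold. The median log2 ratio was 0.02 for serum proteins, 0.02 for cathepsins and legumain and -0.04 for lysosomal glycosidases, lipases and sulfatases, against 0.55 for the 7 bile acid genes and -0.04 over all genes. Ttr was at 32.1 against 32.7 CP10K, Trf at 2.66 against 2.98 and Cubn at 3.23 against 3.37. Slc51a was at 9.57 against 6.40 and Slc51b at 4.32 against 2.95. Of 22 cholesterol genes 0 passed 2-fold and 21 lay below 0 (median -0.32), with Fdps at 6.99 against 11.9. In this comparison 39.5% of all measured genes lay above 0, so most genes of any kind lay below it. The suffix 1 cells with high Afp stood apart: they had Ttr at 59.9, Bex2 at 5.75, Fabp5 at 4.08 and Fdps at 19.5, and Fgf15 at only 0.0236 CP10K.

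Tet3, the gene removed in the knockout, was at 0.369 CP10K in the selected cells, 0.398 in other Fabp6-high cells, 0.331 in other suffix 0 cells and 0.218 in suffix 1 cells. It was seen in 26.5% of the thinned selected cells. Counts near the 3′ end need not report the loss of exon 5, so this value assigns no genotype. Of 6 measured Tet and DNA methylation genes, 0 passed 2-fold within suffix 0 (median log2 0.13), with Tet2 at 0.291 against 0.169.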

How the data were processed

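The deposited table held 11871 cells by 25663 genes as a linear signal that the authors scaled to 10000 per cell. Per the submitters' processing notes, Salmon 0.14.1, alevin, Scanpy 1.6.0 and the builds GRCm38 and mm10 were used. Earlier filters are not given in the sources used. Depth was recovered by setting 1 UMI to the commonest value above 0 in each cell, of which 94.9% of a median cell's values were multiples (tolerance 0.01). Python 3.11.15, numpy 2.4.6, scipy 1.17.1, pandas 2.3.3 and matplotlib 3.10.9 were used. No cell was removed as a doublet; leaving out the 5% deepest cells was an alternative. The members, 39 gene lists and 16 marker lists were chosen with earlier results of these data known. Genes were named as the 10 most different in each direction with a mean of at least 1 CP10K, the same direction within suffixes, and no mitochondrial, ribosomal protein, haemoglobin or sex-linked gene; in each list up to 4 genes most different from all other cells; and list genes given in full. As suffix 1 held 1 member, direction was required within suffix 0 only. The genes ranked by Fano factor, the Afp bin genes and all genes past 2-fold against both neighbouring groups were chosen after their values were seen. The ratio calculation was tested on simulated data. Alternatives moved both minimums, barcode handling, suffix, depth, mitochondrial share, minimum level, pseudocount, totals and summed UMIs.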

Additional observations from a re-analysis of the deposited data

How the results depend on the processing

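Cells of 1 pooled table limit every value to a description, and intervals cover counting error only. No paired analysis was possible because cells carry no sample label and each genotype has 1 library. The share of selected cells, 3.04%, was 1.98% at a Fabp6 minimum of 100, 3.57% at 25, 1.21% at an Afp minimum of 40, 4.85% at 10, 5.65% in suffix 0 and 0.0195% in suffix 1. Keeping the suffix 1 rows of shared barcodes gave 3.13%, with 372 selected cells. Against all other cells, the 233 higher genes became 115 within suffix 0 (108 shared), 88 at a minimum level of 1 CP10K, 457 with no minimum and 121 at a pseudocount of 0.1. The 324 lower genes became 96 at the level of 1, 1037 with no minimum and 183 with other cells under the cycling and goblet limits. Those limits within suffix 0, an alternative chosen after seeing the data, left 74 higher and 109 lower. Against Fabp6-high cells with lower Afp, the 14 higher genes became 9 at an Afp minimum of 10, 4 at the level of 1, 42 with no minimum and 9 at the larger pseudocount, and the 10 lower genes 1, 39 and 3 at the last 3 settings and 5 with suffix 1 rows of shared barcodes kept. Against Afp-high cells with lower Fabp6, the 56 higher and 54 lower genes became 21 and 35 at an Afp minimum of 10, 8 and 8 within suffix 0 (7 and 2 shared), 17 and 18 at the level of 1, 135 and 220 with no minimum, and 30 and 28 at the larger pseudocount, and the 56 became 25 at a Fabp6 minimum of 100. Against Fabp6-high cells, 1 of 187 followed genes changed sign: Ctrb1, from 1.25 to -0.12 (log2) at a Fabp6 minimum of 25. The cause was not tested; its levels were 0.0228 and 0.00382 CP10K at the minimum of 50. Gene ratios within suffix 1 alone were not run, because it held 1 selected cell.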

Other observations

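Of 7 measured iron genes, 1 was at least 2-fold higher than in other suffix 0 cells (median log2 0.65), the heme-degrading Hmox1 at 0.442 against 0.185 CP10K. Hmox1 was higher still, at 0.923, in suffix 0 Afp-high cells with lower Fabp6, where 31.4% of its sum came from the 5 highest cells. The ferritin chains, which store iron, did not pass 2-fold, with Ftl1 at 185 against 95.0 and Fth1 at 69.9 against 47.4. Of 8 measured imprinted genes, 2 were at least 2-fold higher, and the median was 0.83. Those 2 were Meg3, at 2.29 against 0.622, and Rian, at 0.375 against 0.111, noncoding RNAs of 1 imprinted locus. H19 was at 51.6 against 27.9 and Igf2, a fetal growth factor, at 9.45 against 5.26, and other Fabp6-high cells had 50.9 and 9.46.

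Within suffix 0, the medians of 3 lipid gene lists were near that of all genes (0.05). Chylomicron genes had a median log2 ratio of 0.10 over 15 measured, with 0 past 2-fold, and fatty acid oxidation genes -0.07 over 18, with 0 past 2-fold. Lipid uptake and triglyceride synthesis genes had 0.09 over 16, with 1 at least 2-fold lower, Fabp1. With the cycling and goblet limits applied to the other cells, these medians were -0.08, -0.11 and -0.07, against 0.07 over all genes. Under those limits 1 of 15 chylomicron genes was at least 2-fold lower. The low Fabp1 of the selected cells was not matched by Apoa1, at 191 against 145 CP10K, or by Apoa4, at 101 against 93.9.

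Csf1r, known as a receptor of macrophages, ran from 0.586 through 3.22 to 8.96 CP10K over the selected cells, so none lacked it. Its mean was 3.48 against 1.6 in other suffix 0 cells (log2 1.12), while 4 of the 6 immune genes in the table were at 0. The sum over those 6 genes was also high in neighbouring groups. It was 2.71 in Fabp6-high cells with lower Afp and 2.99 in suffix 0 Afp-high cells with lower Fabp6, against 3.48 in the selected cells. The part of RNA from immune cells in the Csf1r level was not tested.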
